A study of Mus musculus with 20 samples.

Results

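Toll-like receptors (TLRs) and NOD receptors are the sensors with which cells of the gut wall read microbial molecules. TLRs sit at the cell surface, where they bind components of the bacterial envelope or flagellin, or in endosomes, where they bind nucleic acids, and most of them signal through the adaptor MyD88, whereas TLR3 signals through TRIF. NOD1 and NOD2 lie in the cytosol and bind fragments of peptidoglycan, and CD14 hands lipopolysaccharide and other ligands to the receptors. The 10 genes followed here were Tlr2, Tlr3, Tlr4, Tlr5, Tlr7, Tlr9, Myd88, Nod1, Nod2 and Cd14. They were chosen by name, with earlier results of these data known. All 10 were found among the 35204 genes of the gene-level table of estimated counts.

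RNA was sequenced from the ileum of 20 female C57Bl6 mice in 4 groups of 5, all on defined diets for 3 weeks from 7 weeks of age. CD mice were fed a control amino acid diet and TDD mice the same kind of diet deficient in tryptophan, both without antibiotics and specific pathogen-free (SPF), and CD+ABX and TDD+ABX mice received these diets together with ampicillin, vancomycin, gentamycin, metronidazole and neomycin. Each library came from 1 mouse and from a whole piece of gut wall, so that fewer cells of a type and less RNA per cell cannot be told apart. Totals lay between 36676963 and 58662617 estimated counts per mouse, and each of the 10 genes had at least 19 counts in each mouse.

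Some libraries stood apart. The summed level of 8 B cell markers (Ms4a1, Cd79a and others, none of them at 0 in any mouse), in counts scaled to library size (CPM), exceeded 50 CPM in 7 mice, namely CD mice 2 and 3, TDD mice 2, 3, 4 and 5, and TDD+ABX mouse 5. It was 91.3 to 205 CPM in these and 5.22 to 33.8 CPM in the other 13. The absorptive cell marker Vil1 was abundant in all 20 mice (group means 3618 to 3884 CPM), but the markers that define the ileum were scarce in SPF mice. Fabp6, the ileal bile acid binding protein, was at 0.238 to 3.91 CPM in CD and TDD mice and at 2.65 to 144 CPM in ABX-treated mice, and Slc10a2, the ileal bile acid transporter, was at 1.38 to 8.8 CPM and 13.2 to 86 CPM. SPF and ABX-treated mice therefore also differed in these ileal markers. The position of the piece along the gut and the treatment itself cannot be told apart here. The part of this difference in the results of ABX treatment was not tested.

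The genes fell into tiers of abundance. Compared per transcript length, in the length-scaled unit TPM, Myd88 was highest (group means 19.8 to 23.8 TPM), followed by Tlr3 (11.2 to 17.9 TPM), Nod1 (3.61 to 4.83 TPM) and Cd14 (1.98 to 2.92 TPM). In every group the ranges of these 4 genes over the 5 mice were separate from each other and from the next gene. The other 6 genes had group means between 0.413 TPM for Nod2 in TDD+ABX mice and 1.12 TPM for Tlr9 in TDD mice, and neighbours in that lower order overlapped in every group. Tlr7 and Tlr9 led them in CD, TDD and TDD+ABX mice, whereas in CD+ABX mice Tlr9 was below Tlr2, Tlr4 and Tlr5. Over the 20 mice, Myd88 varied least, by 1.49-fold between the lowest and the highest CPM, and Tlr9 most, by 10.2-fold.

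**Figure D1:**
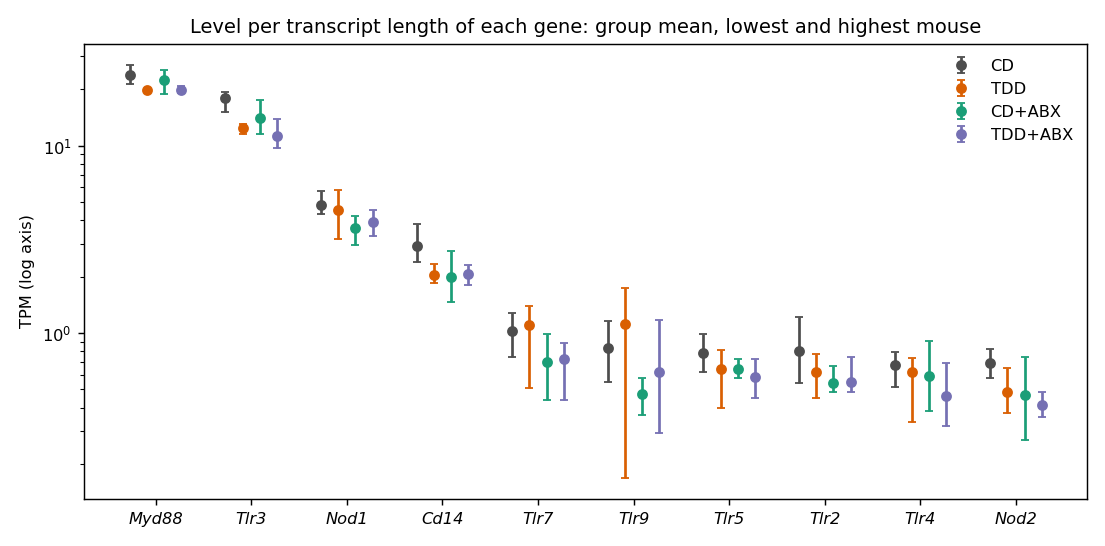
TPM (log axis) of the 10 genes in order of their mean over 20 mice, with points for group means and bars from the lowest to the highest of 5 mice. Within each group the bars of Myd88, Tlr3, Nod1 and Cd14 are separate, while neighbours among the other 6 genes overlap.

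Changes with diet and ABX treatment were modest, and where they passed the test they were decreases. Fold changes were fitted in edgeR and tested by its quasi-likelihood method, the p values were adjusted for the 16306 genes tested (q, Benjamini-Hochberg), and a gene passed at q under 0.05. None of the 10 genes met the study's further limit of a 2-fold change in any comparison, at which 1.83% of all genes were called for TDD against CD in SPF mice, 0.307% for the same contrast in ABX-treated mice, 2.25% for ABX treatment on CD and 1.63% for ABX treatment on TDD. The median log2 fold change of the 10 genes was -0.18 for diet in SPF mice (all genes 0.01), -0.06 for diet in ABX-treated mice, -0.49 for ABX treatment on CD and -0.29 for ABX treatment on TDD (all genes -0.03). All 10 were fitted below 0 with ABX treatment on either diet, where 51.1% (CD) and 54.5% (TDD) of all genes were, and 8 and 7 of 10 with TDD in SPF and ABX-treated mice, where 47.3% and 50.8% of all genes were.

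At q under 0.05, 1 of 10 genes, Tlr3, was lower in TDD than in CD mice without ABX, where 7.71% of all genes were lower. None of 10 passed for diet in ABX-treated mice (all genes lower 1.02%), and Tlr3 and Myd88 had an unadjusted p under 0.05. With ABX treatment on CD 5 of 10 were lower, namely Tlr3, Tlr7, Nod1, Nod2 and Cd14, against 7.37% of all genes. With ABX treatment on TDD 2 of 10 were lower, Tlr3 and Tlr7, against 8.22%. None of the 10 passed in the upward direction. Because the 10 genes were chosen with earlier results of these data known, their counts against the shares of all genes are descriptive. Genes passing in either direction made up 14.4%, 1.64%, 12.6% and 15.4% of all genes in the 4 comparisons, in the order above. At an unadjusted p under 0.05 the counts in these 4 comparisons were 4, 2, 6 and 4 of 10, against 28.4%, 14.7%, 26.5% and 30.5% of all genes. The interaction of diet and ABX passed for none of 10 (0.0368% of all genes, 0.0245% at 2-fold) and had an unadjusted p under 0.05 for Cd14 alone (8.87% of all genes), so that no difference between the diets in the response to ABX was shown. Each group served in 2 of the comparisons, which therefore share mice.

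**Figure D2:**
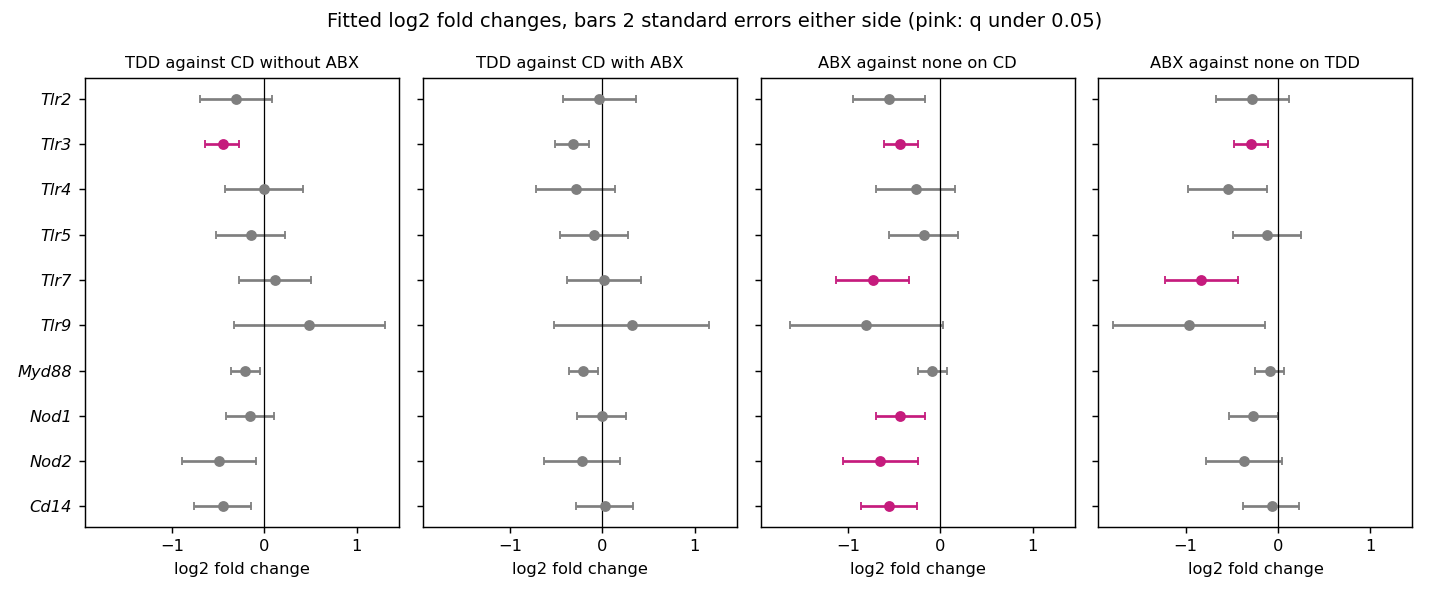
Fitted log2 fold change (x axis) of each gene in the 4 comparisons, with bars of 2 standard errors either side and pink for q under 0.05. Tlr3 passes in 3 of the 4 panels and Tlr7 in both ABX panels, each below 0.

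Tlr3 (chr8:45395665-45411080, minus strand, GRCm38), the endosomal receptor for double-stranded RNA, was lower with TDD and lower again with ABX treatment. Its CPM was 36.2, 30.9, 39.4, 41.6 and 42 in the 5 CD mice and 30.4, 27.2, 25.6, 29.9 and 25.8 in the 5 TDD mice. With ABX, the CPM of Tlr3 was 26.8, 30.8, 24.9, 33.5 and 25.4 on CD and 22.4, 21.2, 23.5, 21.1 and 25.1 on TDD. Each TDD mouse was thus below each CD mouse, though only just for CD mouse 2, and each TDD+ABX mouse was below each TDD mouse, while CD+ABX overlapped both SPF groups. Group ranges without overlap in the lower direction were found for 4.9% of all genes for diet in SPF mice and 5.05% for ABX treatment on TDD.

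The group means of Tlr3 were 38 ± 4.61, 27.8 ± 2.22, 28.3 ± 3.73 and 22.6 ± 1.67 CPM (SD, n = 5) in CD, TDD, CD+ABX and TDD+ABX mice. The log2 fold change of TDD against CD was -0.45 (SE 0.09, q = 0.00296) in SPF mice, a ratio of 0.73, and -0.32 (SE 0.09, q = 0.0861) in ABX-treated mice. With ABX treatment the log2 fold change of Tlr3 was -0.43 on CD (SE 0.09, q = 0.00556) and -0.29 on TDD (SE 0.09, q = 0.0379). The interaction was 0.13 (SE 0.13, q = 0.841), so a difference in the size of the decreases was not shown. The decrease with diet in SPF mice passed in each of the 20 fits that left out 1 mouse (q at most 0.00988) but not without the 7 mice rich in B cell markers (-0.39, q = 0.168), which leaves 1 TDD mouse. ABX treatment on CD passed in those 20 fits as well (q at most 0.0175), whereas ABX treatment on TDD passed in 12 of them and not without TDD mouse 1, 2, 3 or 4 or TDD+ABX mouse 1, 2, 3 or 4 (-0.31 to -0.25, q 0.0502 to 0.0903). On a log2(TPM + 0.1) scale the values for ABX treatment were -0.37 on CD (q = 0.0526) and -0.16 on TDD (q = 0.355), and neither passed. The r of Tlr3 with summed macrophage and T cell markers is given with Cd14, and the part of cell content in these decreases was not tested.

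**Figure D3:**
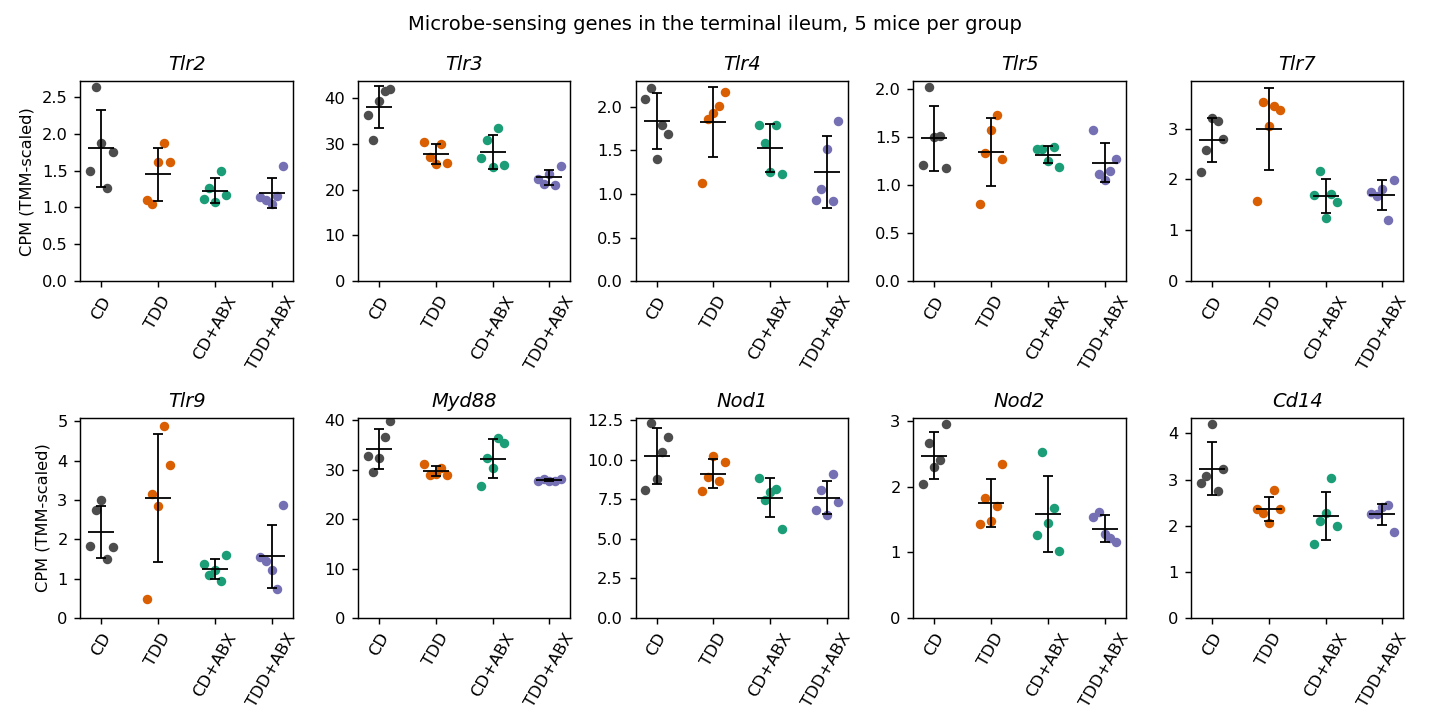
CPM (TMM-scaled, y axes from 0) of each gene in each mouse, by group, with the mean and SD of 5 mice in black. Tlr3 in TDD mice sits below Tlr3 in CD mice, and TDD mouse 1 is the lowest TDD point for Tlr7 and Tlr9.

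Myd88 (chr9:119335934-119341411, minus strand), the adaptor shared by most TLRs and the interleukin-1 receptors, stayed within a narrow range. The CPM of Myd88 was 32.8, 29.5, 32.5, 36.7 and 39.9 in CD mice and 31.2, 29, 29.2, 30.4 and 29 in TDD mice. With ABX it was 26.7, 32.5, 30.3, 36.4 and 35.5 on CD and 27.8, 28.1, 27.7, 27.8 and 28.1 on TDD. The diet groups overlapped, each TDD+ABX mouse was below each TDD mouse, and both TDD groups were tight, with SDs of 0.986 and 0.189 CPM against 4.04 and 3.92 CPM in CD and CD+ABX mice. The log2 fold change of TDD against CD was -0.21 with and without ABX (SE 0.08 in both, q = 0.0858 without ABX and 0.203 with ABX). Without CD mouse 2 the change in SPF mice was -0.26 (q = 0.0238), and without CD+ABX mouse 1 it was -0.22 (q = 0.0416). ABX treatment gave -0.09 on either diet (q = 0.528 and 0.448). The annotated locus of Myd88 overlaps that of Acaa1a on the opposite strand (mean 225 CPM), and whether reads were assigned by strand is not given in the sources used here.

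Over the 20 mice, Tlr3 and Myd88 moved together (Pearson r of log2(CPM + 0.5) 0.78, and 0.62 for deviations from the group means). Among the pairs of the 10 genes Tlr7 and Tlr9 had a higher r over the 20 mice (0.79, and 0.74 within groups). These correlations share libraries and scaling. The genes most like Tlr3 were Gm12185, Gm5431, Inpp1, Zfp984 and Mical1 (r 0.925 to 0.940), and within groups Gm5431 stood highest (r = 0.909). The 4 most like Myd88, which are named although Myd88 passed in no comparison, were Ctsb, the lysosomal protease cathepsin B, Leprotl1, Cblc and the proteasome activator subunit Psme2 (r 0.889 to 0.893).

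Start-site sequences are shown for Tlr3 and Myd88, which moved together, and for Tlr9, which did not move with them over the 20 mice (r = 0.11 with Tlr3 and -0.12 with Myd88). They are the 300 bases (250 before the start site and 50 from it) of the RefSeq table for GRCm38.p6, read in the direction of transcription, with matches in capitals. The windows are chr8:45410331-45410630 (minus strand) for Tlr3, chr9:119339969-119340268 (minus strand) for Myd88 and chr9:106222348-106222647 (plus strand) for Tlr9.
Tlr3: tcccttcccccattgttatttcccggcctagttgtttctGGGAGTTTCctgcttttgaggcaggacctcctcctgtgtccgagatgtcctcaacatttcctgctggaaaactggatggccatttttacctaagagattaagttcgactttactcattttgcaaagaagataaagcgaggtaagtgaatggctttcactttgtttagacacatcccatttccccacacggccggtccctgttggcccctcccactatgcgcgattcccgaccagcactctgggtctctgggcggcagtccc
Myd88: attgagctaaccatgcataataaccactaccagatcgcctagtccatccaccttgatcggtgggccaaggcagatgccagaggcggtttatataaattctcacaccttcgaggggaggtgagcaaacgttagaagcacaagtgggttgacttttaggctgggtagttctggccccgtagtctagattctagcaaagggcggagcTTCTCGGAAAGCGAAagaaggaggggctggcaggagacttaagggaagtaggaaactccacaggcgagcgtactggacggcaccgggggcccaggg
Tlr9: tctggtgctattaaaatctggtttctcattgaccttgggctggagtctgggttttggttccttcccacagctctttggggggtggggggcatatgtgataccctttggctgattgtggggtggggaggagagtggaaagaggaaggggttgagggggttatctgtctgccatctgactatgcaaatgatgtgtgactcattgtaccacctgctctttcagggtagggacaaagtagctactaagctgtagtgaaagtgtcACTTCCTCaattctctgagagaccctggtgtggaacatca

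The motifs were searched on both strands of the windows of the 7 genes that the table holds (Tlr2, Tlr3, Tlr5, Tlr9, Myd88, Nod1 with 2 windows, and Nod2). Myd88 was the gene with a match to GAAANNGAA, a core of interferon response elements present in 8.56% of all 32851 promoters, from 40 to 32 bases before the start site. It overlapped a match to TTCNNNGAA, a STAT core present in 8.3% of promoters, which was also in 1 window of Nod1. That window lies at the annotated start of Nod1-202, which held 7.69% to 10.5% of the TPM of Nod1 on average. The window at the start of Nod1-201, the leading transcript (45.7% to 51%), held none of the motifs. The window of Tlr3 held GGGNNTTTC, a kappa B core present in 4.36% of promoters, from 211 to 203 bases before the start site, and that of Tlr9 held GAGGAAGT, a PU.1 core present in 3.2%, on the opposite strand just after the start site. The windows of Tlr2, Tlr5 and Nod2 held none of these letters, and CACGTG, an E-box (7.15% of promoters), was in no window of the 7 genes. Most Nod2 expression was assigned to a transcript that starts downstream of the Nod2 window, described with Nod2.

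Tlr7 (chrX:167304929-167330558, minus strand), the endosomal receptor for single-stranded RNA, was lower with ABX treatment on both diets. The CPM of Tlr7 was 2.15, 2.58, 3.21, 3.14 and 2.8 in CD mice and 1.58, 3.53, 3.06, 3.44 and 3.36 in TDD mice. With ABX, Tlr7 was at 1.7, 2.16, 1.25, 1.71 and 1.55 CPM on CD and 1.76, 1.68, 1.82, 1.21 and 1.99 CPM on TDD. CD+ABX mice overlapped CD mice by the closest pair alone (2.16 and 2.15 CPM), and TDD+ABX mice were below each TDD mouse but mouse 1. None of the 10 genes had ranges without overlap for ABX treatment on CD or for diet with ABX, which were found in the lower direction for 5.88% and 2.43% of all genes.

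The log2 fold change of Tlr7 with ABX treatment was -0.73 on CD (SE 0.20, q = 0.0205, ratio 0.60) and -0.83 on TDD (SE 0.20, q = 0.0105, ratio 0.56), the largest decreases among the 10 genes that passed. Diet gave 0.11 in SPF mice (SE 0.20, q = 0.765) and 0.02 in ABX-treated mice (SE 0.20, q = 0.981). On CD the decrease did not pass without CD mouse 3 (-0.68, q = 0.054) or CD+ABX mouse 3 (-0.64, q = 0.0585), and on a log2(TPM + 0.1) scale neither decrease passed (-0.52, q = 0.197 and -0.51, q = 0.142). Without the 7 mice rich in B cell markers Tlr7 was still lower with ABX treatment on CD (-0.69, q = 0.0419), but on TDD, where mouse 1 alone was left, the value was 0.03 (q = 0.962).

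Tlr9 (chr9:106222598-106226883, plus strand), the endosomal receptor for unmethylated CpG DNA, spread most widely over the 20 mice. Its CPM was 1.82, 2.74, 3.01, 1.49 and 1.81 in CD mice and 0.477, 3.16, 2.84, 4.87 and 3.89 in TDD mice. In CD+ABX mice Tlr9 was at 1.37, 1.1, 1.23, 0.953 and 1.6 CPM, and in TDD+ABX mice at 1.55, 1.46, 1.22, 0.736 and 2.87 CPM. The TDD mice held both the lowest and the highest value of all 20. No comparison of Tlr9 passed: diet gave 0.48 in SPF mice (SE 0.41, q = 0.471) and 0.32 in ABX-treated mice (SE 0.42, q = 0.776), and ABX treatment gave -0.80 on CD (SE 0.42, q = 0.234) and -0.96 on TDD (SE 0.41, q = 0.119). On TDD the decrease passed without TDD mouse 1 (-1.24, q = 0.0101) or without TDD+ABX mouse 5 (-1.28, q = 0.0428), and then exceeded 2-fold. The sum of B cell markers was lowest of its group in the former mouse (7.18 CPM) and highest of its group in the latter (143 CPM).

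Tlr9 followed the B cell markers. The 7 mice above 50 CPM of these markers had 2.74 to 4.87 CPM of Tlr9 and the other 13 had 0.477 to 1.82 CPM, without overlap (r of log2 values 0.89, both over the 20 mice and within groups). For Tlr7 the same 2 sets of mice overlapped, at 1.99 to 3.53 and 1.21 to 3.14 CPM (r = 0.70). The summed B cell markers had medians of 11.1, 138, 8.41 and 17.2 CPM in CD, TDD, CD+ABX and TDD+ABX mice (ranges 8.62 to 133, 7.18 to 205, 5.22 to 11.9 and 6.07 to 143), and 0 of 8 passed in any comparison. Without the 7 mice the log2 fold change of Tlr9 for diet in SPF mice turned from 0.48 to -1.83 (q = 0.0464), a comparison of 3 CD mice with TDD mouse 1. Within groups the r with the B cell sum was 0.64 for Tlr7, 0.66 for Tlr2 and 0.63 for Tlr5, and between -0.29 and 0.45 for the remaining genes. Tlr9 also had an r within groups of 0.70 with summed dendritic cell markers and 0.66 with summed macrophage markers. The part of B cell content in the values of Tlr9, Tlr7, Tlr2, Tlr5 and Tlr4 was not tested.

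**Figure D4:**
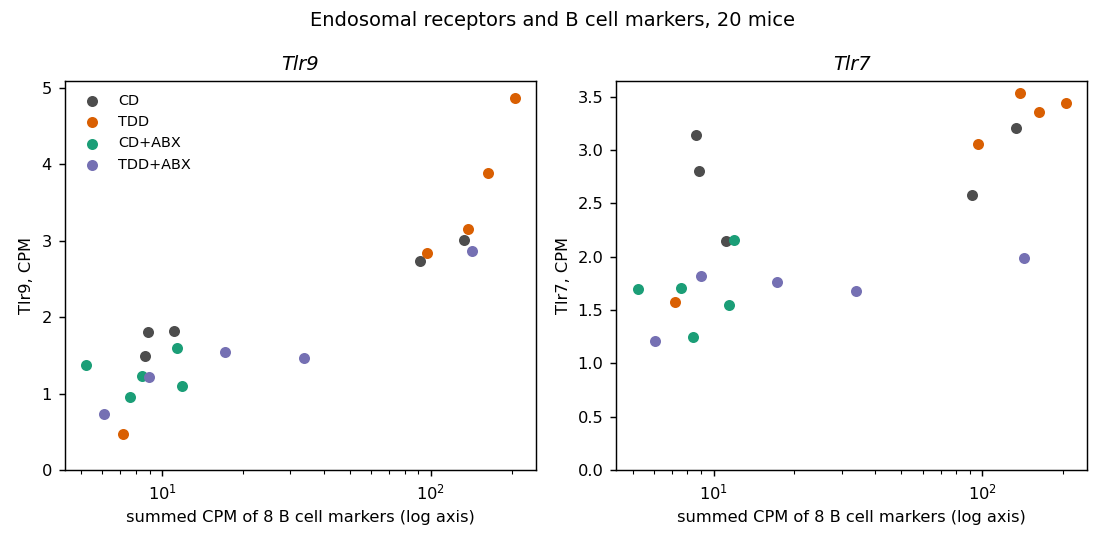
CPM of Tlr9 (left) and Tlr7 (right) against the summed CPM of 8 B cell markers (log axis) in each of 20 mice, coloured by group. Mice above 50 CPM of markers have the 7 highest values of Tlr9, whereas 3 CD mice with few B cell markers have Tlr7 at 2.15 to 3.14 CPM.

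The genes most like Tlr7 over the 20 mice were Sla, an adaptor of lymphocyte receptors, the T cell co-stimulator Cd28, the granule proteoglycan Srgn, Inpp4b and Sp140 (r 0.924 to 0.950). T cell markers moved with ABX treatment too: 5 of 6 were lower on CD and 4 of 6 on TDD, where 7.37% and 8.22% of all genes were lower. Their summed ranges were 32.9 to 95.5 CPM in CD, 27.8 to 44.5 in TDD, 18.3 to 23.7 in CD+ABX and 16.8 to 30.6 in TDD+ABX mice. Of 7 dendritic cell markers 3 were lower with ABX treatment on each diet, their summed level ranged from 40.7 to 53.8 CPM in CD, 25.1 to 42.5 in TDD, 31.1 to 35.6 in CD+ABX and 29.3 to 37 in TDD+ABX mice, and none was at 0. The r of Tlr7 with the dendritic sum was 0.74 over the 20 mice and 0.70 within groups, with the T cell sum 0.74 and 0.35, and with the B cell sum 0.70 and 0.64. The part of these cells in the values of Tlr7 was not tested. The genes most like Tlr9, named although Tlr9 passed in no comparison, were Rasgrp3, Wdfy4, Gpr174, the regulator of MHC class II genes Ciita and the kinase Prkcb (r 0.945 to 0.967). Unc93b1, which carries nucleic acid-sensing TLRs to endosomes, was lower with TDD in SPF mice (58.5 to 46.6 CPM, log2 fold change -0.33, q = 0.0234) and with ABX treatment on CD (-0.64, q = 0.000409) and TDD (-0.55, q = 0.00136).

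Among the surface receptors, Cd14, the co-receptor for lipopolysaccharide, was the gene that passed. Its CPM was 2.92, 3.07, 4.21, 2.75 and 3.22 in CD mice and 2.36, 2.27, 2.05, 2.78 and 2.36 in TDD mice. With ABX, Cd14 was at 1.61, 2.11, 2.27, 3.04 and 2 CPM on CD and 2.25, 2.26, 2.4, 2.45 and 1.87 CPM on TDD. CD mice were highest, with an overlap of 1 mouse in each other group at most, and the other 3 groups lay together. ABX treatment on CD gave a log2 fold change of -0.55 (SE 0.15, q = 0.0229, ratio 0.68) and on TDD -0.07 (SE 0.15, q = 0.783), and the difference between these, 0.48 (SE 0.22), had an unadjusted p of 0.0384 and a q of 0.519. The decrease on CD did not pass without CD mouse 3 (-0.44, q = 0.0769), CD+ABX mouse 1 (-0.45, q = 0.0565) or CD+ABX mouse 5 (-0.52, q = 0.0548), nor without the 7 mice rich in B cell markers (-0.43, q = 0.141) or with the CD and CD+ABX mice alone (-0.55, q = 0.0871).

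For diet in SPF mice, Cd14 gave -0.45 (SE 0.15, q = 0.052), just outside the threshold. This comparison passed with DESeq2 (-0.46, q = 0.0275) and limma-voom (-0.46, q = 0.0421), and on leaving out any of 6 mice, which were TDD+ABX mouse 5, CD+ABX mice 1 and 4, TDD mouse 4 and CD mice 2 and 4 (q 0.0259 to 0.0465). In ABX-treated mice it was 0.03 (SE 0.15, q = 0.959). Of 8 markers of macrophages, cells in which Cd14 is abundant, 7 were lower with ABX treatment on CD, where Cd14 passed, and 6 with TDD in SPF mice. With ABX treatment on TDD 3 were lower, and with TDD in ABX-treated mice 0. Of all genes 7.37%, 7.71%, 8.22% and 1.02% were lower in these comparisons, in that order. The summed level of the macrophage markers ranged from 200 to 254 CPM in CD, 119 to 183 in TDD, 143 to 165 in CD+ABX and 118 to 134 in TDD+ABX mice, and no marker was at 0 in any mouse. The r of Cd14 with this sum was 0.61 over the 20 mice and 0.04 within groups. That of Tlr3 was 0.75 and -0.19, of Nod1 0.57 and 0.09, and of Nod2 0.75 and 0.30. With the T cell sum, Tlr3 had an r of 0.68 and 0.30, Nod1 of 0.62 and 0.11, and Nod2 of 0.64 and 0.16. The part of macrophage content in the values of Cd14 was not tested, nor that of macrophages and T cells in the values of Tlr3, Nod1 and Nod2. The genes most like Cd14 were Hps1, Mpzl1, Galnt4, the glucose-6-phosphatase G6pc and Sdr42e1 (r 0.788 to 0.876).

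Tlr2, Tlr4 and Tlr5, the receptors for bacterial lipoproteins, lipopolysaccharide and flagellin, passed in no comparison. Tlr2 ranged from 1.26 to 2.63 CPM in CD mice, 1.05 to 1.87 in TDD, 1.08 to 1.5 in CD+ABX and 1.05 to 1.56 in TDD+ABX mice. Its largest change was with ABX treatment on CD (-0.55, SE 0.20, q = 0.0738), which passed without CD mouse 4 (-0.65, q = 0.0392). Tlr4 was at 1.4 to 2.21 CPM in CD, 1.13 to 2.17 in TDD, 1.23 to 1.79 in CD+ABX and 0.915 to 1.84 in TDD+ABX mice. With ABX treatment on TDD Tlr4 gave -0.54 (SE 0.21, q = 0.0901), and it passed without TDD mouse 1 (-0.67, q = 0.0328) or TDD+ABX mouse 5 (-0.71, q = 0.0261). These mice had the lowest and the highest sum of B cell markers in their groups, 7.18 and 143 CPM. Diet did not separate Tlr4 in SPF mice (-0.01, with 2 standard errors reaching from -0.43 to 0.42). Tlr5 stayed between 0.803 and 2.02 CPM in all mice, with log2 fold changes from -0.18 to -0.09 and q of at least 0.607. Ly96, the MD-2 partner of TLR4, was lower with TDD in ABX-treated mice (3.74 to 2.58 CPM, -0.54, q = 0.0402).

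The cytosolic peptidoglycan receptors Nod1 (chr6:54923949-54972612, minus strand) and Nod2 (chr8:88647315-88688474, plus strand) were lower with ABX treatment on CD. The CPM of Nod1, the receptor for diaminopimelic acid-containing fragments, was 8.07, 12.3, 8.75, 10.5 and 11.4 in CD mice and 8.82, 7.45, 7.96, 8.13 and 5.6 in CD+ABX mice. That of Nod2, the receptor for muramyl dipeptide, was 2.04, 2.67, 2.29, 2.41 and 2.95 in CD mice and 1.26, 2.52, 1.45, 1.67 and 1.02 in CD+ABX mice. For Nod1 the groups overlapped through CD mice 1 and 3 and CD+ABX mice 1 and 4, and for Nod2 through CD+ABX mouse 2. On TDD, Nod1 was at 8 to 10.2 CPM without and 6.51 to 9.11 CPM with ABX, and Nod2 at 1.43 to 2.34 and 1.15 to 1.62 CPM.

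ABX treatment on CD gave log2 fold changes of -0.43 for Nod1 (SE 0.13, q = 0.0392, ratio 0.74) and -0.65 for Nod2 (SE 0.20, q = 0.0419, ratio 0.64). On TDD the values were -0.27 (SE 0.13, q = 0.178) and -0.37 (SE 0.20, q = 0.227), and the interactions were 0.16 (q = 0.868) and 0.27 (q = 0.851). Both calls on CD were close to the threshold: Nod1 passed in 14 and Nod2 in 9 of the 20 fits that left out 1 mouse, with q up to 0.0971 and 0.104. The mice without which Nod1 did not pass were CD mice 2, 4 and 5 and CD+ABX mice 2, 3 and 5 (log2 fold changes -0.44 to -0.33), and for Nod2 they were CD mice 2 to 5, TDD mice 2 and 4, CD+ABX mice 1, 3, 4 and 5 and TDD+ABX mouse 3 (-0.67 to -0.52). With the CD and CD+ABX mice alone, neither passed (q = 0.0951 and 0.104). Diet in SPF mice gave -0.16 for Nod1 (SE 0.13, q = 0.45) and -0.49 for Nod2 (SE 0.20, q = 0.114), and in ABX-treated mice Nod1 was the same on both diets on average (7.59 and 7.58 CPM).

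Most Nod2 RNA was assigned to Nod2-202, whose annotated start on chromosome 8 (88651341) lies beyond the RefSeq window (it ends at 88647396). This transcript held 97.2% ± 4.81 (SD, n = 5) of the TPM of Nod2 in CD mice, 95.6% ± 6.39 in TDD, 89.5% ± 9.25 in CD+ABX and 84.9% ± 10.2 in TDD+ABX mice. The retained-intron transcript Nod2-204 held 0.628% ± 1.41, 3.36% ± 6.05, 9.98% ± 8.21 and 12.2% ± 8.97 in the same groups. Its lowest share was 0% in each group, so the groups overlapped, at gene totals of 48 to 140 counts per mouse. Nod1-201 led Nod1 with 45.7% to 51%, Myd88-201 held 94.4% to 95.3% of Myd88, and Tlr3-205 led Tlr3 with 34.3% to 41.2%. For Tlr7 the shares of Tlr7-201 and Tlr7-202 ranged from 25.9% to 100% and from 0% to 69% between mice, at 61 to 198 counts, and no order of these transcripts is given. The genes most like Nod1 were Pla2g15, Shfl, Hip1, Kiz and Zfp395 (r 0.836 to 0.899), and those most like Nod2 were Gm4951, Robo1, the thromboxane synthase Tbxas1, the immunoglobulin gene segment Ighv1-26 and Vstm4 (r 0.822 to 0.886).

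The wider pathway was read from 85 further genes, of which 79 were tested. With TDD in SPF mice 4 were higher and 5 lower, with TDD in ABX-treated mice 1 was lower, with ABX treatment on CD 2 were higher and 8 lower, and with ABX treatment on TDD 13 were lower. These shares, 11.4%, 1.27%, 12.7% and 16.5%, lay near those of all genes passing in either direction, 14.4%, 1.64%, 12.6% and 15.4%. The 13 and the 16.5% include Cxcl2, from which no change is read, for the reason given with the induced targets below. The interaction passed for none of 79.

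Of 7 other TLRs, the profilin sensor Tlr12 was lower with TDD in SPF mice (9.05 to 6.23 CPM, log2 fold change -0.54, q = 0.012), and Tlr13, a sensor of bacterial ribosomal RNA, Tlr11 and Tlr12 were lower with ABX treatment on CD (-0.78, -0.57 and -0.42, q = 0.00869, 0.0419 and 0.0479). Of 10 co-receptors and trafficking factors, besides Unc93b1 and Ly96, the folding factor Cnpy4 was lower with TDD in SPF mice (-0.26, q = 0.0209). The chaperone Hsp90b1 was higher with ABX treatment on CD (543 to 866 CPM, 0.67, q = 0.000409). The scavenger receptor Cd36 (-0.50, q = 0.0142) and the endosomal transporter Slc15a3 (-0.62, q = 0.0433) were lower with ABX treatment on TDD. Of 17 adaptors and kinases 1 passed, Ikbkb, with ABX treatment on TDD (-0.20, q = 0.00557), and of 8 transcription factors none passed in any comparison.

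In NOD signalling, 3 of 8 tested genes were higher with TDD in SPF mice, where 14.4% of all genes passed in either direction and 7.71% were lower. The ubiquitin ligases Birc2 and Birc3 rose from 46.4 to 58.6 CPM (0.34 on the log2 scale, q = 0.00211) and from 39 to 65.3 CPM (0.75, q = 1.04e-05), and both were lower with ABX treatment on TDD (-0.32, q = 0.00362 and -0.67, q = 0.000215). Slc15a1, the apical peptide transporter, was higher with TDD in SPF mice (0.65, q = 0.0383) and with ABX treatment on CD (0.93, q = 0.00646). Among 10 negative regulators Tnip1 was higher with TDD in SPF mice (0.48, q = 0.00693), and Irak3 and Cyld were lower with ABX treatment on TDD (-0.52, q = 0.0308 and -0.28, q = 0.0313).

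Of 8 tested induced targets, the adhesion molecule Icam1 was lower with ABX treatment on CD (9.68 to 5.88 CPM, log2 fold change -0.72, q = 0.0115) and TDD (-0.73, q = 0.0102). Tnf was lower with ABX treatment on TDD (1.04 to 0.541 CPM, -0.94, q = 0.0289), and Cxcl2 had a q of 0.0205 there. Cxcl2 had 2 to 36 counts per TDD mouse and 1 to 3 per TDD+ABX mouse and reached the 0.5 CPM filter in the TDD group alone, the group it was then compared with, so no change is read from it. Pglyrp2, a peptidoglycan amidase, was lower with ABX treatment on CD (2.62 to 0.869 CPM, -1.60, q = 0.00247). Of 9 other sensors, the nucleic acid sensor Zbp1 fell from 29 to 9.09 CPM with TDD in SPF mice (-1.67, q = 0.00228) and Dhx58 from 19 to 8.95 CPM (-1.09, q = 0.0182), and the DNA-sensing genes Tmem173 and Aim2 were lower with ABX treatment on CD (-0.62, q = 0.024 and -0.56, q = 0.0211) and TDD (-0.68, q = 0.014 and -0.51, q = 0.0289).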

How the data were processed

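RNA from the ileum of 20 mice was poly-A selected and sequenced. The authors quantified reads with kallisto 0.44.0 against GRCm38 transcripts and deposited estimated counts per gene and, per mouse, estimated counts and TPM per transcript. The deposited gene-level estimated counts were already whole numbers. Gene TPM was summed here over the deposited transcript TPM values, and transcripts were given genes by GENCODE M21 (98.4% matched). The counts were scaled by TMM in edgeR 4.0.16 (R 4.3.3), genes at 0.5 CPM or more in at least 1 mouse were kept, and 1 robust quasi-likelihood fit over the 4 groups of 5 gave the 5 contrasts. q values are Benjamini-Hochberg adjusted over all tested genes, genes passed at q under 0.05, and the 2-fold limit and 0.5 CPM floor follow the study, whose test within its web tool is not given in the sources used here. CPM values in the text are TMM-scaled.

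The 10 genes are named throughout. From the pathway lists, genes with q under 0.05 in a comparison are named, up to 4 per list by lowest p, and for each of the 10 genes that passed somewhere, the 5 genes of highest Pearson r of log2(CPM + 0.5) over the mice. The members, the lists and the markers were chosen with earlier results of these data known. Alternatives were RLE and upper-quartile scaling, no filter, 0.5 CPM in at least 5 mice, DESeq2 1.42.0, limma 3.58.1 (voom, log2(TPM + 1) and log2(TPM + 0.1)), 2 groups alone, leaving out each mouse, and a block for mouse number. A fit without robust spread and one without the 7 mice over 50 CPM of B cell markers were added after seeing the data. Totals of 36676963 to 58662617 counts per mouse left Tlr9, which varied most, at 19 to 229 counts per mouse. Promoter sequences are from RefSeq (GRCm38.p6), and windows were matched for 7 of the 10 genes by symbol.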

Additional observations from a re-analysis of the deposited data

Results flagged for a closer look

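In 2 of the 40 sets of 5 mice (10 genes in 4 groups) 1 mouse lay far from the other 4 by Dixon's test at the 95% level, and chance flags about 1 in 20 such sets. Tlr7 was at 1.58 CPM in TDD mouse 1 and at 3.06 to 3.53 CPM in the other TDD mice; the same mouse had the lowest sum of B cell markers in its group, 7.18 CPM. Tlr2 was at 1.56 CPM in TDD+ABX mouse 5 and at 1.05 to 1.15 CPM in the other TDD+ABX mice; this mouse had the highest sum of B cell markers in its group, 143 CPM.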

How the results depend on the processing

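Of 1590 alternative values of single genes 2 changed sign with a passing test on one side, for Tlr9 and Tlr7, both on leaving out the 7 mice rich in B cell markers, an alternative added after seeing the data that leaves 1 TDD mouse, assumed to vary like the other groups. Tlr9 was then at -1.83 for diet in SPF mice, where it alone passed and so 1 gene was called at 2-fold, and Tlr7 at 0.03 for ABX treatment on TDD, where 0 genes passed in place of 2, and 2 in place of 5 passed for ABX treatment on CD. For diet in SPF mice (1 gene in the main test) 2 genes passed with the filter of 0.5 CPM in at least 5 mice, with DESeq2 and with limma-voom, and 3 with log2(TPM + 1) and with log2(TPM + 0.1). For diet in ABX-treated mice 1 passed with DESeq2, Tlr3. For ABX treatment on CD 3 passed with no filter, 2 with the 2 groups alone and 1 on either TPM scale. For ABX treatment on TDD 1 passed with RLE scaling and with no filter, and 0 on either TPM scale. Without a fold limit the called genes were those that passed, 1, 0, 5 and 2 in the 4 comparisons. Leaving out 1 mouse gave 1 to 3 passing genes for diet in SPF mice, 0 to 1 for diet in ABX-treated mice, 2 to 5 for ABX treatment on CD and 1 to 4 for ABX treatment on TDD, where 0 to 1 (Tlr9) exceeded 2-fold. No mean level moved by more than 1 SD with scaling to library totals. Ordered over the 20 mice by the highest transcript alone, Myd88 and Tlr3 kept places 1 and 2, and Cd14 took place 3 from Nod1. On the TPM scales a pseudocount of 1 or 0.1 was added to each value, and the cause of these changes was not tested.

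No pairing of the groups by mouse number was seen. Of 30 pairs of mice with the same number in different groups 5 had deviations from their group means correlated above 0.1. The median r was -0.0289, against -0.00573 for mice with other numbers, and 1 of 20 mice correlated best with its own number. What the numbers stand for is not given, and this check cannot exclude a shared litter, cage or day. With a replicate block, 1 gene passed for diet in SPF mice, 0 for diet in ABX-treated mice, 4 for ABX treatment on CD and 1 for ABX treatment on TDD. Tlr9, Tlr5 and Tlr2 had as few as 19, 32 and 44 counts in a mouse.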
